A study of Mus musculus with 109 samples.

Results

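Müller glia are the radial glia that span the retina, and 10 genes of their housekeeping programme (Glul, Slc1a3, Kcnj10, Aqp4, Car2, Rlbp1, Clu, Dkk3, Abca8a and Sox9) were followed through every treatment, day and genotype of a study of cytokine injection into the mouse eye. The 10 genes were chosen by name for their known role in these cells, with earlier results of these data known, and they are 10 of the 37315 genes in the count table. RNA of whole retinas was sequenced from 64 mice aged 2 to 4 months, of which 45 gave both eyes. Wild-type (WT) C57BL/6J retinas of batch 1 were collected 2 days after intravitreal injection of PBS (31 retinas), TNF (8), IL1A (9) or IL1A+TNF (10), and after 14 days (7 PBS, 6 TNF) or 35 days (6 PBS, 9 TNF). Batch 2, all at day 2, held WT retinas with PBS (5) or IL1A+TNF (6) and Sarm1-/- retinas, which lack the NAD-cleaving enzyme that drives axon degeneration, with PBS (6) or IL1A+TNF (6). PBS is the vehicle, so the control eyes were injected too, and no uninjected eye was analysed here. TNF and IL1A are inflammatory cytokines, and the comparisons ask how each alone and both together act on the retina and whether loss of Sarm1 alters that. The labels give no cell sorting, so every value is a level in the whole retina, in which Müller glia are a minority of cells.

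Müller glia take up the glutamate that neurons release, turn it into glutamine, pass potassium and water from the neural layers to the vitreous and vessels, buffer pH, and take part in recycling the visual pigment's chromophore for cones. After injury they become reactive, a state called gliosis in which intermediate filaments such as GFAP rise. Of the 10 genes, Glul encodes glutamine synthetase, Slc1a3 the glutamate transporter GLAST, Kcnj10 an inwardly rectifying potassium channel, Aqp4 a water channel and Car2 a carbonic anhydrase. Rlbp1 encodes a binding protein for visual retinoids, Clu and Dkk3 encode secreted proteins (the chaperone clusterin and a Dickkopf family member), Abca8a a membrane transporter of the ABC family, and Sox9 a transcription factor of glia. Astrocytes also express several of them, among them Glul, Slc1a3, Kcnj10, Aqp4, Clu and Sox9, and neurons or pigment epithelium can express Clu, Car2 and Rlbp1.

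The promoter sequences of the members that moved after IL1A+TNF are shown because members of one cell type moved in opposite directions. RefSeq promoters on build GRCm38.p6 were used for 5 of the 10 members (Glul, Rlbp1, Kcnj10, Slc1a3 and Abca8a). The 250 bases before the start are printed below, 5′ to 3′ on the gene's strand. They are given for Glul and Rlbp1, which were lower, and for Kcnj10 and Slc1a3, which were higher. Capitals mark matches on either strand to 7 motifs: the SOX motif (ACAANG), the AP-1 motif (TGANTCA), the STAT motif (TTCNNNGAA), the C/EBP motif (TTGNNNCAA), the TATA box (letters TATAAA), the box named CCAAT for its letters, and the NF-kB motif. The regions are chr1:153899679-153899928 (plus strand) for Glul, chr7:79387028-79387277 (minus) for Rlbp1, chr1:172340960-172341209 (plus) for Kcnj10 and chr15:8710808-8711057 (minus) for Slc1a3.
Glul: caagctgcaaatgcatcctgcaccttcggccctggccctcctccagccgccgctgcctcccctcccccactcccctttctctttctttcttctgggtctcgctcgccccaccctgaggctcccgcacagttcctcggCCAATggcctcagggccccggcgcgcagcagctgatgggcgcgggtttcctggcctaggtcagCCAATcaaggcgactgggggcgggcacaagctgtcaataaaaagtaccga
Rlbp1: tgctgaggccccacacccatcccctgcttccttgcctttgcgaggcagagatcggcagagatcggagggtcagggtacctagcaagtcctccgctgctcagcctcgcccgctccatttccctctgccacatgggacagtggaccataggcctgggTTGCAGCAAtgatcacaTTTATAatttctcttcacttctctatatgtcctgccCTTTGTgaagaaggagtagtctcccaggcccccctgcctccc
Kcnj10: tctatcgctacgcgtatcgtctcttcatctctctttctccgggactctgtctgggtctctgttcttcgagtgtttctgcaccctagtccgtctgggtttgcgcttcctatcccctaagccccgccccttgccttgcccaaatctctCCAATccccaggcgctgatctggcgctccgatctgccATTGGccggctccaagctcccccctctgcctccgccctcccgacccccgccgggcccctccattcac
Slc1a3: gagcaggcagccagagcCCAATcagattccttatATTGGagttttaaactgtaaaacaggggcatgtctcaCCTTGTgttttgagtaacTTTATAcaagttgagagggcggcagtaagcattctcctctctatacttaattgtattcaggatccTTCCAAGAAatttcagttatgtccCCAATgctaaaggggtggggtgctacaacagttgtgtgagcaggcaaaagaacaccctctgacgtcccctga
Glul and Kcnj10 each held 2 CCAAT letters and no other motif, although one was lower and the other higher. Rlbp1 held a C/EBP match, and a SOX and a TATA match on the opposite strand. Slc1a3 held 3 CCAAT matches, 1 of them on the opposite strand, a SOX and a TATA match on the opposite strand, and the STAT match TTCCAAGAA. One of the 2 CCAAT matches of Kcnj10 was on the opposite strand. Abca8a held no match. Among 32851 promoters of the same length, 36.3% held the SOX letters, 33.8% CCAAT, 12.4% TATA, 7.02% STAT, 6.75% AP-1, 5.02% C/EBP and 3.9% NF-kB. No AP-1 or NF-kB match lay in these 5 windows.

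Total counts ran from 30014757 to 79064488 per retina, and no member had fewer than 709 counts in any retina. Levels are given as CPM (counts scaled to library size with edgeR's TMM factors), a scale that compares retinas and not genes. Sarm1 itself was at 37.31 to 53.23 CPM in Sarm1-/- PBS retinas and at 106.2 to 125.6 CPM in WT PBS retinas of batch 2, and these ranges do not overlap. The median correlation of a retina with the others of its group, over 15131 genes, was at least 0.967 in all retinas but 2. These were Sarm1-/- IL1A+TNF retinas, both from females, at 0.916 and 0.911, and they are called the retinas that stand apart. Bipolar cell markers summed to 267.1 and 249.3 CPM in these retinas and to at least 633.5 CPM in every other retina, and retinal ganglion cell (RGC) markers summed to 108.8 and 89.17 CPM against at least 299.7 CPM elsewhere. Each result that rests on them is given with and without them, an alternative chosen after seeing the data.

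In PBS retinas at day 2 the 10 genes spanned a wide range of levels per length of transcript (RPKM, CPM per kilobase of exon). Glul was highest at 518.4 ± 103.8 RPKM (SD, n = 31), which ranked 28 among 14880 genes. Below it came Clu at 282.6 ± 40 RPKM, Dkk3 at 262.4 ± 31.8 RPKM, Car2 at 134.3 ± 15.2 RPKM, Rlbp1 at 72 ± 11 RPKM and Abca8a at 54.7 ± 8.30 RPKM. The transporter and channel genes were lower, with Slc1a3 at 29.5 ± 3.66 RPKM, Aqp4 at 27.1 ± 2.56 RPKM and Kcnj10 at 20.6 ± 3.56 RPKM, and Sox9 was lowest at 8.13 ± 1.18 RPKM. The neighbours Clu and Dkk3, and Slc1a3 and Aqp4, lay within 1 SD of each other. Among PBS retinas Glul varied most (coefficient of variation 20.03%) and Aqp4 least (9.44%).

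At 2 days after IL1A+TNF the Müller glia genes moved in both directions in WT retinas of batch 1. Glutamine synthetase, the retinoid carrier, clusterin, carbonic anhydrase and the ABC transporter were lower, the potassium channel, the glutamate transporter and Sox9 were higher, and the water channel and Dkk3 did not pass the test. By limma on voom weights, with the Benjamini-Hochberg adjusted p (FDR) under 0.05 over all 19548 genes tested, 8 of the 10 genes were called, 5 lower and 3 higher. The same call was made for 50.4% of all genes tested (25.5% lower, 24.9% higher), and the median log2 fold change was −0.25 over the 10 genes and −0.02 over all genes. Since the tissue is whole retina, fewer Müller glia and less RNA per cell cannot be told apart for the genes that were lower.

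**Figure D1:**
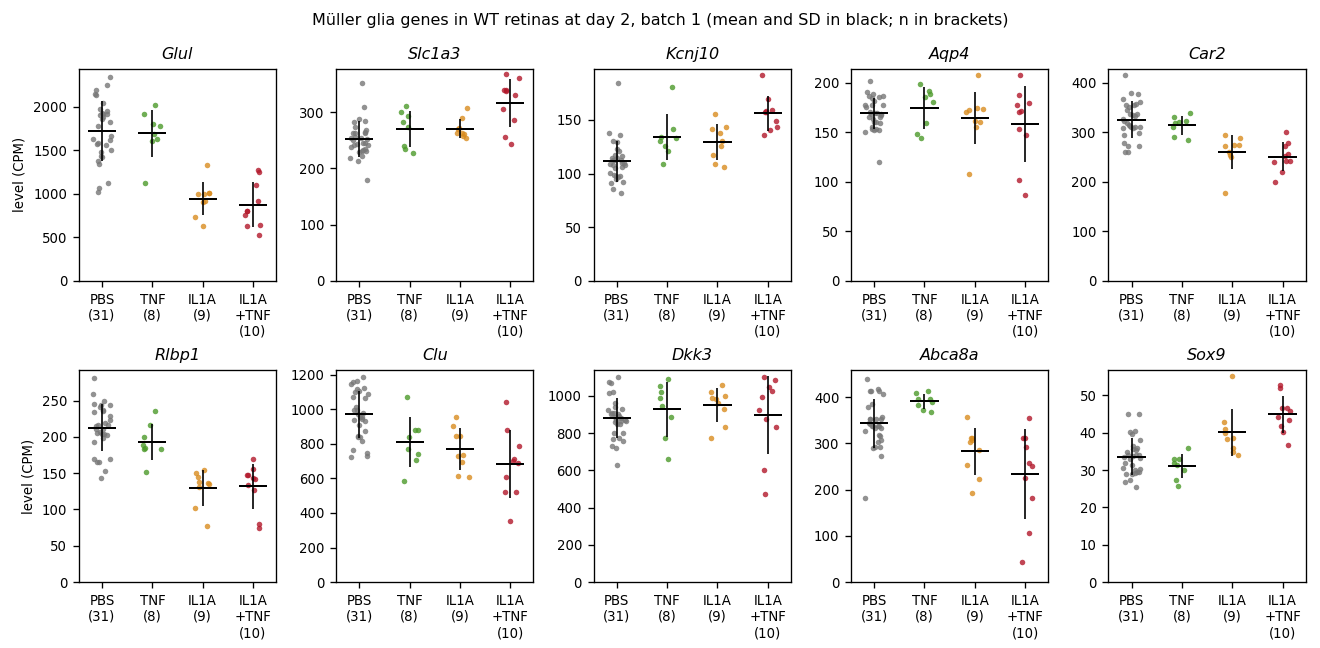
Level in CPM (vertical axes, from 0) of each gene in every WT retina of batch 1 at day 2, by injection (horizontal axis, number of retinas in brackets); points are retinas, black bars the mean and SD. Glul, Rlbp1 and Car2 lie lower after IL1A and after IL1A+TNF than after PBS or TNF, while Kcnj10, Slc1a3 and Sox9 have their highest medians after IL1A+TNF.

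The genes of glutamate handling moved apart. Glul ran from 1025 to 2343 CPM (median 1775) over the 31 PBS retinas and from 530.2 to 1268 CPM (median 807.6) over the 10 IL1A+TNF retinas. All 10 lay below the PBS mean and 7 below the lowest PBS retina, a log2 fold change of −0.99 ± 0.11 (SE, FDR 3.22e-11), or 0.503 of the PBS level. In the 8 mice with PBS in the other eye, Glul was lower in the IL1A+TNF eye in 8 of 8. Slc1a3, which brings glutamate into the cell, was at 178.9 to 351 CPM (median 249.7) after PBS and at 242.5 to 367.5 CPM (median 333.8) after IL1A+TNF. The groups overlap, 9 of 10 retinas lay above the PBS mean, and the log2 fold change was 0.32 ± 0.061 (FDR 1.09e-05). Slc1a3 was higher in the treated eye in 7 of 8 mice, with a log2 difference of −0.45 in the other.

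The potassium channel and the water channel, which sit together in the endfeet, differed as well. Kcnj10 was at 81.65 to 183.9 CPM (median 109.5) after PBS and at 135.5 to 192 CPM (median 157.5) after IL1A+TNF. All 10 retinas lay above the PBS mean, and Kcnj10 was higher by 0.48 ± 0.071 on the log2 scale (FDR 7.07e-08). Within mice it was higher in the treated eye in 7 of 8 and lower by 0.44 in the other. Aqp4 was at 120.3 to 201.3 CPM (median 168.5) after PBS and at 86.19 to 207.8 CPM (median 170.8) after IL1A+TNF, with 2 retinas below and 1 above the whole PBS range. Its log2 fold change of −0.13 ± 0.080 did not pass (FDR 0.169, 95% interval −0.29 to 0.028). Car2, which serves pH and carbon dioxide handling, was at 260.6 to 416.1 CPM (median 322.4) after PBS and at 198.9 to 301.1 CPM (median 246.8) after IL1A+TNF. It lay below the PBS mean in 10 of 10 retinas and fell by 0.37 ± 0.058 on the log2 scale (FDR 2.47e-07).

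Rlbp1, the retinoid carrier, was at 143.8 to 281.8 CPM (median 215.1) after PBS and at 75.13 to 169.9 CPM (median 142.7) after IL1A+TNF. Every treated retina lay below the PBS mean and 6 of 10 below the lowest PBS retina (log2 fold change −0.70 ± 0.095, FDR 8.71e-09), and the treated eye was the lower one in 8 of 8 mice. The secreted proteins differed from each other. Clu was at 723 to 1186 CPM (median 973) after PBS and at 352 to 1045 CPM (median 695.3) after IL1A+TNF, a fall of 0.54 ± 0.090 on the log2 scale (FDR 1.03e-06) with 9 of 10 retinas below the PBS mean. Dkk3 was at 630.1 to 1103 CPM (median 881) after PBS and at 470.5 to 1101 CPM (median 960) after IL1A+TNF, and its log2 fold change had a 95% interval from −0.17 to 0.16 (FDR 0.99).

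Abca8a was at 181.2 to 438.8 CPM (median 337.8) after PBS and at 43.9 to 355 CPM (median 254.8) after IL1A+TNF. Of the 10 treated retinas 9 lay below the PBS mean and 2 below every PBS retina (log2 fold change −0.72 ± 0.15, FDR 5.74e-05). The retina with the lowest Abca8a (43.9 CPM) had the lowest level of its group in 8 of the 10 genes, all but Slc1a3 and Sox9, and the highest neutrophil marker sum (346.1 CPM). With its mouse (60212) left out, 8 genes were again called (share of all genes not given here). The log2 fold change of Abca8a was then −0.47 ± 0.107 (FDR 0.000266). Sox9 was at 25.49 to 45.06 CPM (median 33.59) after PBS and at 36.58 to 52.71 CPM (median 44.96) after IL1A+TNF. Each of the 10 treated retinas lay above the PBS mean and 5 above every PBS retina, a log2 fold change of 0.42 ± 0.065 (FDR 2.09e-07). Within mice Sox9 was higher in the treated eye in 7 of 8, with a log2 difference of −0.30 in the other.

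**Figure D2:**
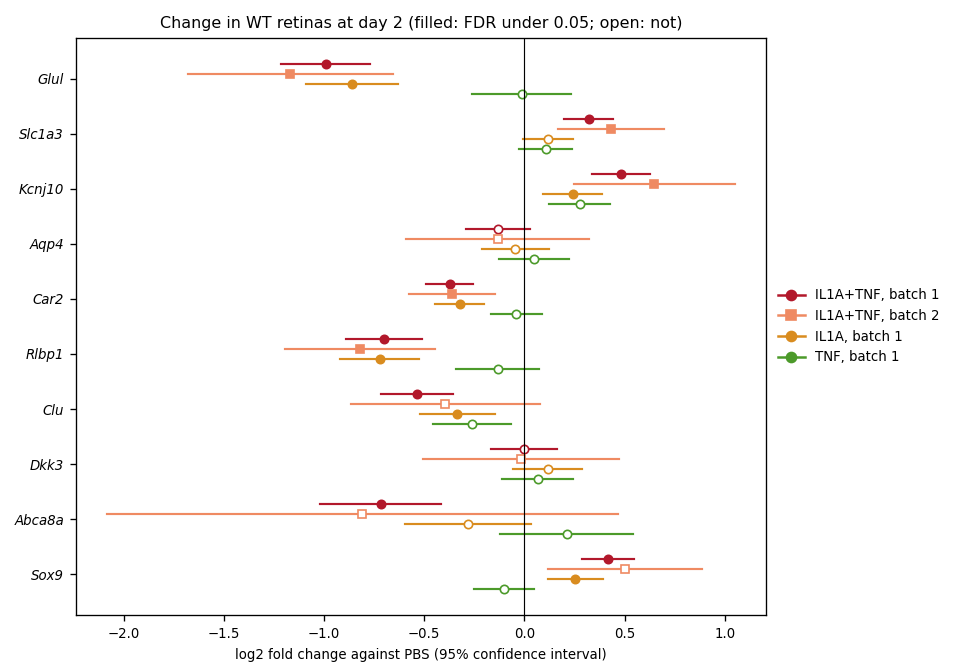
Log2 fold change against PBS (horizontal axis) of each gene (vertical axis) with its 95% confidence interval, for 4 comparisons in WT retinas at day 2; filled symbols have an FDR under 0.05. Glul, Rlbp1 and Car2 lie left of 0 with intervals that exclude it for both IL1A+TNF batches and for IL1A, while the TNF intervals of these genes include 0.

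Other genes of the same functions, taken from lists written with earlier results of these data known, also moved in part after IL1A+TNF. Of 6 further genes for glutamate and GABA handling, 4 fell and 1 rose: the glutamate transporter Slc1a2 fell by 0.29 ± 0.038 (log2) and the glutamine exporter Slc38a3 by 0.16 ± 0.037, and glutamate dehydrogenase Glud1 rose by 0.17 ± 0.033. Of 11 further genes for ions, water and pH, 5 fell and none rose, with the potassium channel Kcnj2 at −0.29 ± 0.053, the bicarbonate exchanger Slc4a3 at −0.16 ± 0.035, the sodium pump subunit Atp1b2 at −0.14 ± 0.032 and carbonic anhydrase Car14 at −0.47 ± 0.13. Among 6 genes of the dystrophin complex, which anchors channels in the endfeet, 4 fell and 1 rose. Dmd (dystrophin) was at −0.74 ± 0.085, Utrn (utrophin) at −0.35 ± 0.071 and Dtnb (dystrobrevin beta) at −0.26 ± 0.046. The genes named here and in the next paragraphs on lists of genes are given as log2 fold changes with SE, and had an FDR under 0.05 by limma unless another FDR is given. All these counts, and those in the next paragraphs on lists, stand beside the 50.4% of all genes called in this comparison (25.5% lower, 24.9% higher).

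Retinoid genes went both ways, with 3 of 8 higher and 3 lower. The dehydrogenase Dhrs3 rose by 0.15 ± 0.034, whereas the opsin Rgr fell by 2.31 ± 0.42 and the dehydrogenase Rdh11 by 0.19 ± 0.040. Rgr is made in pigment epithelium as well as in Müller glia, and 5 of 7 pigment epithelium markers fell too (Ttr by 2.04 ± 0.38, Rpe65 by 1.78 ± 0.43, Pmel by 1.78 ± 0.61, Lrat by 1.3 ± 0.40). Their sum ran from 27.78 to 597.7 CPM after PBS and from 10.59 to 187.1 CPM after IL1A+TNF. Rlbp1 is also a pigment epithelium gene, and the part of that tissue in the fall of Rlbp1 was not tested. Of 9 glial transcription factors 3 rose (Sox2 by 0.44 ± 0.066, Nfix by 0.31 ± 0.051, Nfib by 0.22 ± 0.057) and 1 fell (Hes5 by 0.52 ± 0.16). Of 7 other Müller glia genes 2 rose (the cholesterol exporter Abca1 by 1.03 ± 0.091, Apoe by 0.41 ± 0.14) and 2 fell (the lactate transporter Slc16a1 by 0.56 ± 0.062, the glucose transporter Slc2a1 by 0.29 ± 0.078).

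Markers of gliosis and of other cells moved in the same retinas. Of 14 gliosis genes 13 rose (Cd44 by 1.66 ± 0.16, S100a6 by 1.52 ± 0.17, Gfap by 1.44 ± 0.16, Fgf2 by 1.31 ± 0.15), and their sum ran from 628 to 3445 CPM after PBS and from 2220 to 3816 CPM after IL1A+TNF. Of the neuron markers 7 of 8 rod (Nrl −0.85 ± 0.071, Gnat1 −0.77 ± 0.075, Pde6b −0.59 ± 0.058), 8 of 8 cone (Arr3 −2.33 ± 0.17, Opn1sw −1.98 ± 0.18, Opn1mw −1.25 ± 0.11, Gnat2 −1.02 ± 0.097), 7 of 7 bipolar, 9 of 10 RGC and 8 of 8 amacrine genes fell. The rod sum was 35440 to 55090 CPM after PBS and 22820 to 41400 CPM after IL1A+TNF, and the cone sum 808.1 to 1192 CPM and 245.2 to 918.3 CPM. For the inner retina the bipolar sum was 856.2 to 1362 CPM after PBS and 633.9 to 1162 CPM after IL1A+TNF, the RGC sum 587.5 to 835.6 and 524.7 to 678.9 CPM, and the amacrine sum 991.9 to 1185 and 766.1 to 1069 CPM.

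Immune and vessel markers were higher. Called higher were 4 of 4 neutrophil genes tested (S100a8 by 3.92 ± 0.39, S100a9 by 3.59 ± 0.39), 4 of 4 monocyte genes (Lyz2 by 3.49 ± 0.41, Ccr2 by 3.32 ± 0.46), 6 of 8 microglia genes (Itgam by 2.05 ± 0.18, C1qa by 1.29 ± 0.12) with 1 lower, and 5 of 6 endothelial genes (Cdh5 by 0.71 ± 0.099) with 1 lower. The neutrophil sum was 0.436 to 65.8 CPM after PBS and 35.4 to 346.1 CPM after IL1A+TNF, the monocyte sum 7.40 to 117.2 and 206.3 to 585.7 CPM, and the microglia sum 76.02 to 140.7 and 196.2 to 327.2 CPM, the monocyte and microglia sums without overlap. Astrocyte markers, which matter for genes that astrocytes share, were Pax2 (higher by 0.77 ± 0.13), Pdgfra (lower by 0.52 ± 0.15) and S100b (lower by 0.33 ± 0.10), and their sum overlapped (17.05 to 56.26 and 12.97 to 28.91 CPM). Of 3 horizontal cell genes Onecut2 was higher and Lhx1 lower. The smallest FDR was 0.163 among lens genes (Crygs) and 0.105 among erythrocyte genes (Hbb-bs). No marker of these lists was at 0 in all retinas of either group, and the part of these cells in the changes of the 10 genes was not tested.

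IL1A alone lowered glutamine synthetase, the retinoid carrier, carbonic anhydrase and clusterin and raised Sox9 and the potassium channel, while after TNF alone no member passed the test. These comparisons share the 31 PBS retinas with the one above. After IL1A 6 of the 10 genes were called, 4 lower and 2 higher, where 21.4% of all genes were called (9.45% lower, 12% higher). Glul was at 628.9 to 1325 CPM (median 994.4, n = 9) and fell by 0.86 ± 0.12 on the log2 scale (FDR 2.56e-08), with 8 of 9 retinas below every PBS retina. Rlbp1 was at 77.31 to 154.7 CPM (median 137) and fell by 0.72 ± 0.099 (FDR 4.8e-08). Car2 at 177 to 294 CPM (median 271.7) fell by 0.32 ± 0.061 (FDR 3.73e-05) and Clu at 610.9 to 954.4 CPM (median 735.3) by 0.34 ± 0.093 (FDR 0.00581), and 9 of 9 retinas lay below the PBS mean for each of these 4 genes. Sox9 at 33.98 to 55.29 CPM (median 38.68) rose by 0.25 ± 0.069 (FDR 0.00426) in 9 of 9 retinas, and Kcnj10 at 105.8 to 155.3 CPM (median 130.3) by 0.24 ± 0.074 (FDR 0.0127) in 7 of 9. The other members had log2 fold changes of 0.12 ± 0.063 for Slc1a3 (FDR 0.187), −0.28 ± 0.16 for Abca8a (FDR 0.221), 0.12 ± 0.085 for Dkk3 (FDR 0.377) and −0.045 ± 0.083 for Aqp4 (FDR 0.773). With mouse as a fixed factor, which uses only mice with differently treated eyes, Clu (FDR 0.175) and Sox9 (FDR 0.23) were no longer called. That fit called 10.9% of all genes. Gliosis markers rose here too (13 of 14), as did 4 of 4 neutrophil genes, and 5 of 8 cone and 2 of 7 bipolar genes fell.

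After TNF no member was called by limma, edgeR or DESeq2, where 0.655% of all genes were called by limma. An unadjusted p under 0.05 was found for 1497 of all 19548 genes and for 2 of the 10. Those were Kcnj10 at 108.7 to 180.8 CPM (median 131.6, n = 8; log2 fold change 0.28 ± 0.077, FDR 0.0842, above the PBS mean in 7 of 8 retinas) and Clu at 588 to 1072 CPM (median 804.8; −0.26 ± 0.097, FDR 0.349, below the mean in 7 of 8). Kcnj10 passed when mouse 60212 (FDR 0.0153) or mouse 60584 (FDR 0.0136) was left out. Glul at 1121 to 2023 CPM (median 1728) had a log2 fold change of −0.014 with a 95% interval from −0.26 to 0.23. Abca8a lay above the PBS mean in 8 of 8 retinas (367.9 to 412.2 CPM, median 392.4), within the PBS range, and its log2 fold change of 0.21 ± 0.17 did not pass (FDR 0.849). The log2 fold changes of the other 6 ran from −0.13 ± 0.104 (Rlbp1, FDR 0.848) to 0.11 ± 0.065 (Slc1a3, FDR 0.766), with −0.10 ± 0.075 for Sox9, −0.042 ± 0.064 for Car2, 0.047 ± 0.087 for Aqp4 and 0.067 ± 0.089 for Dkk3. Between the eyes of the 8 mice, Car2 was lower in the TNF eye in 8 of 8 (mean log2 difference −0.13, exact sign-flip permutation p = 0.00781, the smallest possible, adjusted 0.109). Rlbp1 was lower in 7 of 8 (mean −0.28, adjusted exact p = 0.109) and Abca8a higher in 7 of 8 (mean 0.20, adjusted exact p = 0.109).

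Set directly against IL1A, the combination gave no call in the 10 genes by limma, where 10.1% of all genes were called. An unadjusted p under 0.05 was found for 3 of the 10 and for 4772 of all 19548 genes. Kcnj10 was higher by 0.24 ± 0.091 (FDR 0.0783) and Slc1a3 by 0.20 ± 0.077 (FDR 0.0832) with both cytokines, and Abca8a was lower by 0.44 ± 0.19 (FDR 0.139). The other 7 had log2 differences from −0.20 (Clu) to 0.16 (Sox9). DESeq2 called 2 of the 10, Kcnj10 (FDR 0.043) and Slc1a3 (FDR 0.0336), where it called 11.9% of all genes, and edgeR none (10% of all genes). Limma called 1 or 2 of the 10 when mouse 59734, 60212, 60588 or 60780 was left out (share of all genes not given here). A departure from additivity of the cytokines on the log2 scale was called for none of the 10 genes by limma, edgeR or DESeq2 (3.6% of all genes by limma). The unadjusted p was under 0.05 for Abca8a (−0.65 ± 0.25, FDR 0.144) and Sox9 (0.26 ± 0.11, FDR 0.188), and for 3431 of all 19548 genes. The intervals leave room for sizeable departures, from −1.16 to −0.14 for Abca8a and from −0.49 to 0.25 for Glul. Besides Abca8a and Sox9, the estimates ran from −0.18 (Dkk3) to 0.15 (Rlbp1). Males and females did not differ by the test in any of the 10 genes with limma, edgeR or DESeq2 (0.363% of all genes by limma). An unadjusted p under 0.05 was found for 1948 of all 19548 genes and for 2 of the 10 (Clu higher in males by 0.17 ± 0.067, FDR 0.345, and Kcnj10 lower by 0.12 ± 0.053, FDR 0.442). The other 8 differed by −0.059 (Sox9) to 0.16 (Abca8a) on the log2 scale.

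The level of part of these genes in PBS retinas differed between the days. At day 14, 6 of the 10 genes were called against day 2, with Glul, Rlbp1 and Car2 higher and Slc1a3, Clu and Sox9 lower (19.2% of all genes, 8.68% higher and 10.5% lower). At day 35, 3 were higher (Glul, Rlbp1, Car2) and 3 lower (Slc1a3, Clu, Sox9), where 32.8% of all genes were called (15.4% higher and 17.4% lower). Both comparisons share the day 2 retinas. Clu was at 723 to 1186 CPM (median 973, n = 31) at day 2, at 502.4 to 657.2 CPM (median 593.4, n = 7) at day 14 and at 394.6 to 482.7 CPM (median 424.1, n = 6) at day 35. The ranges of the 3 days do not overlap, and the log2 differences from day 2 were −0.74 ± 0.077 (FDR 7.06e-09) and −1.15 ± 0.082 (FDR 2.66e-14). Glul was at 2059 to 2920 CPM (median 2544) at day 14 and at 2346 to 2727 CPM (median 2571) at day 35, higher than at day 2 by 0.58 ± 0.11 (FDR 0.000171) and 0.61 ± 0.12 (FDR 8.82e-05). Rlbp1, at 259.3 to 348.7 CPM (median 302.9) and 298.4 to 318.6 CPM (median 308.6), was higher by 0.54 ± 0.083 (FDR 6.26e-06) and 0.56 ± 0.088 (FDR 3.31e-06). At day 35 neither gene overlapped with day 2. For how many of all genes the days do not overlap was not counted. Other markers differed between these PBS retinas too. The gliosis sum was 628 to 3445 CPM at day 2, 357.6 to 469.4 CPM at day 14 and 256.8 to 306.2 CPM at day 35. The median neutrophil sum was 5.97, 0.112 and 0.0955 CPM. The part of these in the levels of the 10 genes was not tested.

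The remaining differences between days were smaller. Car2 was higher than at day 2 by 0.21 ± 0.062 at day 14 (FDR 0.0119) and 0.26 ± 0.066 at day 35 (FDR 0.00218), Slc1a3 was lower by 0.19 ± 0.061 (FDR 0.0217) and 0.25 ± 0.065 (FDR 0.00294), and Sox9 was lower by 0.28 ± 0.079 (FDR 0.00849) and 0.32 ± 0.084 (FDR 0.00257). The other 4 genes (Aqp4, Kcnj10, Dkk3 and Abca8a) were not called on either day, with log2 differences from −0.15 (Kcnj10, day 14) to 0.14 (Abca8a, day 35). All 44 PBS retinas are of batch 1, but each day was a separate set of mice, so time since injection and anything else that set those mice apart cannot be told apart.

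**Figure D3:**
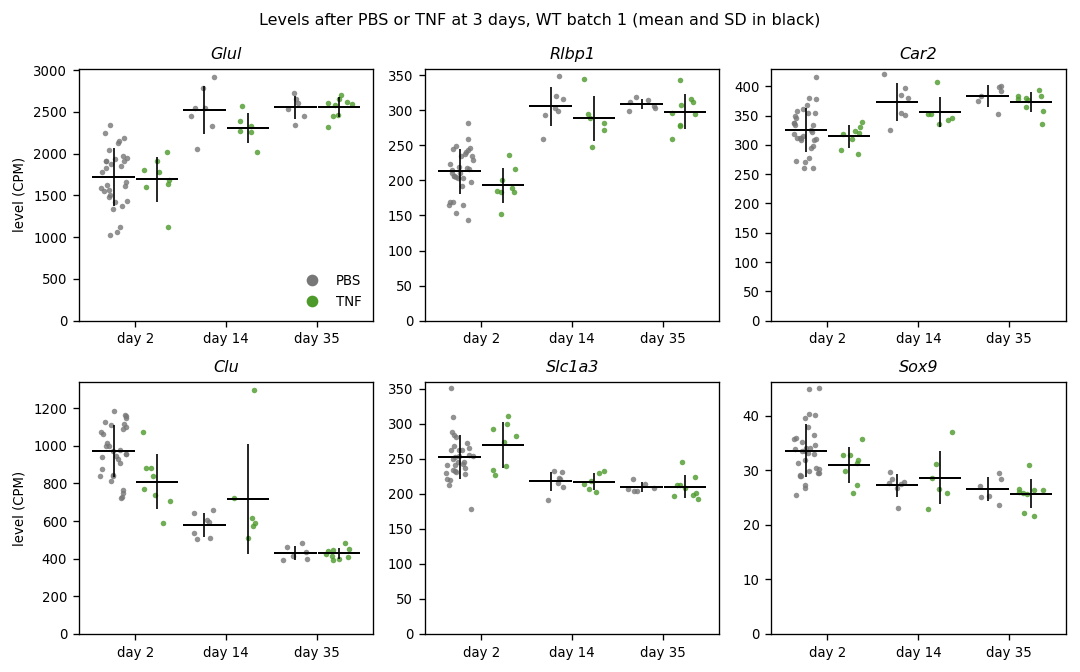
Level in CPM (vertical axes, from 0) of 6 genes in WT batch 1 retinas at 3 days (horizontal axis) after PBS (grey) or TNF (green); points are retinas, black bars the mean and SD. In both treatments the means of Glul and Rlbp1 are higher and the mean of Clu is lower at days 14 and 35 than at day 2. The days were compared by a test only after PBS. After TNF, Clu overlaps between day 2 (588 to 1072 CPM) and day 14 (507.6 to 1294 CPM), where 1 retina is at 1294 CPM.

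At the later days no difference between TNF and PBS passed the test. None of the 10 was called at day 14 or day 35 by limma, edgeR or DESeq2 (0% of 18023 and 0% of 17821 genes by limma). The unadjusted p was under 0.05 for 1 of the 10 (Aqp4 at day 35, log2 fold change 0.087 ± 0.041, FDR 0.889). Over all genes it was under 0.05 for 838 at day 14 and 871 at day 35. Glul at day 35 was at 2317 to 2705 CPM (median 2597, n = 9) after TNF and its interval ran from −0.075 to 0.083 on the log2 scale, so a difference of the size seen after IL1A at day 2 lies outside it. The widest interval was that of Clu at day 14, from −0.14 to 0.48, where 1 TNF retina was at 1294 CPM and the other 5 were at 507.6 to 722.4 CPM. Over the 10 genes the log2 fold changes ran from −0.095 (Glul) to 0.17 (Clu) at day 14 and from −0.046 (Sox9) to 0.087 (Aqp4) at day 35.

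The second batch of WT retinas repeated the day 2 comparison in other mice. Glul was at 1232, 1655, 1970, 2025 and 2158 CPM in the 5 PBS retinas and at 647.8 to 1051 CPM (median 801.2) in the 6 IL1A+TNF retinas. Rlbp1 was at 176.3 to 276.1 CPM after PBS and 114.6 to 142 CPM after IL1A+TNF, Kcnj10 at 107.2 to 137.5 and 158.2 to 220.9 CPM, and Slc1a3 at 239.2 to 267.5 and 283.9 to 376.4 CPM. By limma 5 of the 10 genes were called, where 20.9% of all genes were called (7.55% lower, 13.3% higher). Glul (−1.17 ± 0.25, FDR 0.00202), Rlbp1 (−0.82 ± 0.18, FDR 0.00284) and Car2 (−0.36 ± 0.10, FDR 0.0162) fell, and Kcnj10 (0.65 ± 0.19, FDR 0.0214) and Slc1a3 (0.43 ± 0.13, FDR 0.0205) rose. Sox9 (0.50 ± 0.18, FDR 0.0576) and Abca8a (−0.81 ± 0.61, FDR 0.358) missed the threshold in this fit, whose spread is shared with the Sarm1-/- retinas. Clu, which fell in batch 1, was at 844.5 to 1043 CPM after PBS and 502.5 to 1011 CPM after IL1A+TNF and did not pass (−0.39 ± 0.226, FDR 0.223). Aqp4 (−0.13 ± 0.219, FDR 0.682) and Dkk3 (−0.017 ± 0.234, FDR 0.966) did not pass either. Without the 2 retinas that stand apart, 7 of 10 were called (38.8% of all genes), Abca8a with an FDR of 0.0208 and Sox9 with 0.000477, and Clu was again not called (FDR 0.0801). Both edgeR (22.9% of all genes) and DESeq2 (26.5%) called 6 of 10. With mouse as a fixed factor (a block for the pairing of eyes) 3 of 10 were called (11.7% of all genes). With mouse 61719, 61721, 61722 or 62224 left out limma called 3, 3, 2 and 3 (shares of all genes not given here). The effect of IL1A+TNF did not differ between the batches by the test in any of the 10 genes with limma, edgeR or DESeq2 (0% of 20328 genes by limma), and none had an unadjusted p under 0.05. The largest difference was −0.17 for Abca8a, with an interval from −1.08 to 0.75.

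Without cytokine no difference between Sarm1-/- and WT retinas passed the test in these genes. None of the 10 was called by limma, edgeR or DESeq2 (0.0397% of all genes by limma, and 0.0439% without the 2 retinas that stand apart, again with no member), none had an unadjusted p under 0.05, and the log2 differences ran from −0.11 (Rlbp1, interval −0.40 to 0.19) to 0.22 (Aqp4, interval −0.072 to 0.51). In 2 of 6 Sarm1-/- mice the gliosis sum was higher in the PBS eye than in the IL1A+TNF eye (3482 against 2849 CPM and 3484 against 2151 CPM). The 3 IL1A+TNF retinas from females had the 3 lowest levels of Abca8a, Aqp4, Rlbp1, Dkk3, Car2 and Glul of their group. With 3 retinas per sex, 2 of them the retinas that stand apart, this was not tested.

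**Figure D4:**
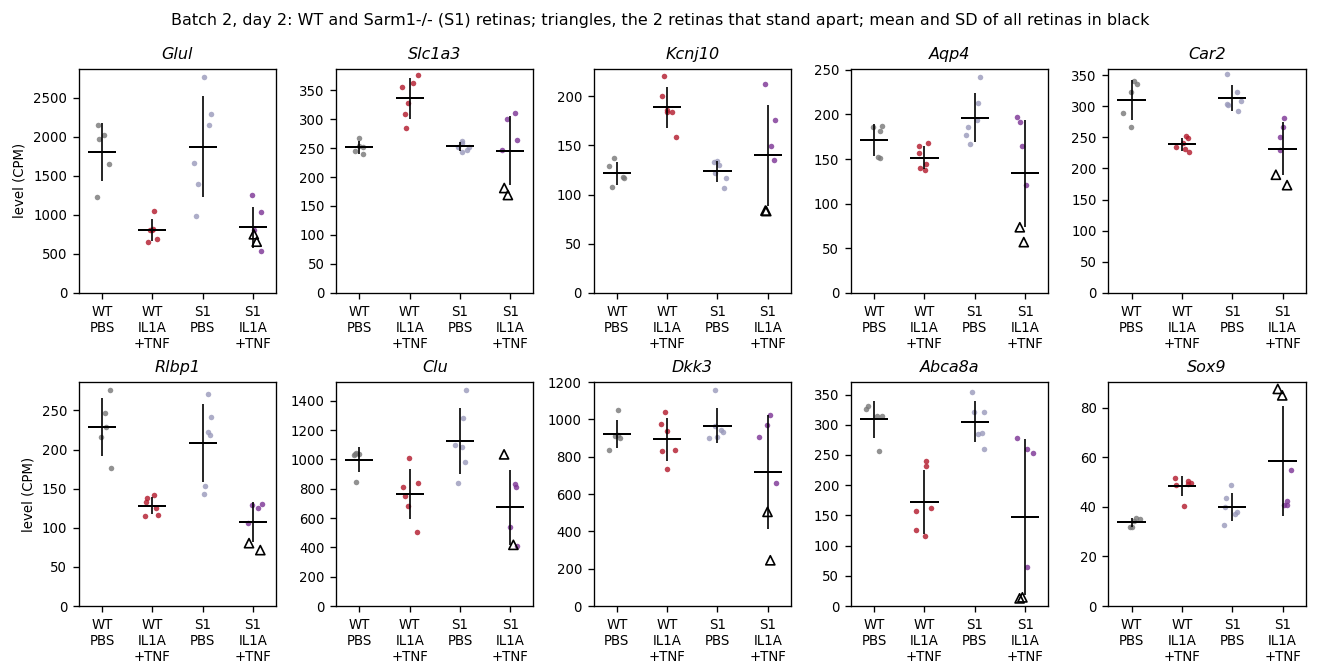
Level in CPM (vertical axes, from 0) of each gene in every batch 2 retina, by genotype (S1, Sarm1-/-) and injection (horizontal axis); points are retinas, black bars the mean and SD of all retinas, triangles the 2 retinas that stand apart. The triangles are at 12.81 and 14.45 CPM for Abca8a and at 84.97 and 87.57 CPM for Sox9, outside all other retinas shown.

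After IL1A+TNF the fall of Glul, Rlbp1, Car2 and Clu was also seen in Sarm1-/- retinas, and further calls rested on the 2 retinas that stand apart. In all 6 retinas against 6 PBS retinas, limma called 8 of the 10 genes, 7 lower and 1 higher (43.5% of all genes, 22.2% lower and 21.3% higher). Without the 2 retinas 5 of 10 were called, 4 lower and 1 higher (13% of all genes). Glul was at 988.2 to 2762 CPM (median 1909) after PBS and at 533.8 to 1258 CPM (median 781) after IL1A+TNF, a fall of 1.12 ± 0.20 on the log2 scale (FDR 5.37e-06) and of 1.05 ± 0.22 without the 2 retinas (FDR 0.000547). Rlbp1 was at 143.8 to 271.3 CPM (median 220.1) and at 71.53 to 130.7 CPM (median 115.8), a fall of 0.94 ± 0.16 (FDR 2.58e-06) and of 0.73 ± 0.17 without the 2 retinas (FDR 0.00185). Clu fell by 0.79 ± 0.17 (FDR 7.8e-05) and by 0.88 ± 0.17 without them (FDR 0.000173), and Car2 by 0.44 ± 0.094 (FDR 0.000107) and by 0.29 ± 0.099 (FDR 0.0377).

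The other called genes rested on the 2 retinas. Abca8a was at 259.6 to 353.7 CPM after PBS and, after IL1A+TNF, at 12.81 and 14.45 CPM in the 2 retinas. The other 4 (median 257.1 CPM) were not alike, with 65.06 CPM in 1 female retina and 253.8, 260.4 and 278.7 CPM in the males. Of these 4 the female retina also had the lowest Aqp4 (120.6 CPM) and Dkk3 (659 CPM). Its RGC marker sum was 299.7 CPM against 583.6 to 696.6 CPM in the males. The log2 fold change of Abca8a was −1.94 ± 0.37 with the 2 retinas (FDR 1.74e-05). It was −0.75 ± 0.28 without them (FDR 0.0615), in a fit that keeps the retina at 65.06 CPM. Aqp4 was at 56.91 and 73.57 CPM in the 2 retinas and at 120.6 to 197 CPM in the other 4, with log2 fold changes of −0.67 ± 0.16 (FDR 0.000307) and −0.25 ± 0.14 (FDR 0.231). Dkk3, at 245.4 and 504.8 CPM against 659 to 1024 CPM, went from −0.56 ± 0.16 (FDR 0.00352) to −0.16 ± 0.14 (FDR 0.512). Sox9, at 84.97 and 87.57 CPM against 40.69 to 54.72 CPM, went from 0.49 ± 0.12 (FDR 0.000693) to 0.16 ± 0.11 (FDR 0.357). Kcnj10 went the other way: it was at 83.18 and 83.64 CPM in the 2 retinas, below every PBS retina, and at 134.9 to 212.6 CPM in the other 4, above every PBS retina. It was not called in all 6 (0.11 ± 0.13, FDR 0.524) and rose without the 2 (0.45 ± 0.12, FDR 0.00837). Slc1a3 had log2 fold changes of −0.063 ± 0.10 (FDR 0.663) and 0.15 ± 0.10 (FDR 0.348).

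The comparison of genotypes after IL1A+TNF followed the same retinas. Limma called 4 of the 10 genes lower in Sarm1-/- than in WT retinas (14.8% of all genes): Slc1a3 (−0.44 ± 0.095, FDR 0.00188), Kcnj10 (−0.45 ± 0.12, FDR 0.00868), Abca8a (−1.12 ± 0.33, FDR 0.0158) and Dkk3 (−0.46 ± 0.15, FDR 0.0255). The other 6 had log2 differences from −0.33 (Aqp4, FDR 0.116) to 0.24 (Sox9, FDR 0.137). DESeq2 called 2 (7.91% of all genes), edgeR 1 (5.93%) and limma on batch 2 alone none (0.656%). With mouse 61924 or 61926, which gave the 2 retinas, left out, 1 was called each time (shares of all genes not given here). Without the 2 retinas none was called by limma (0.898% of all genes), and Abca8a turned to 0.075 ± 0.26 (FDR 0.924). Slc1a3 was then at −0.22 ± 0.096 (FDR 0.257), Kcnj10 at −0.11 ± 0.12 (FDR 0.725) and Dkk3 at −0.047 ± 0.13 (FDR 0.902). The genotype by treatment term, which asks whether the effect of IL1A+TNF differs between genotypes, was called for 3 of the 10 genes (8.75% of all genes): Aqp4 (−0.54 ± 0.18, FDR 0.0401), Slc1a3 (−0.42 ± 0.12, FDR 0.0193) and Dkk3 (−0.56 ± 0.18, FDR 0.043). The other 7 ran from −1.21 ± 0.419 (Abca8a, FDR 0.055) to 0.049 ± 0.142 (Sox9, FDR 0.878). DESeq2 called 1 (2.13% of all genes), edgeR none (0.898%), the fit with mouse as a fixed factor none (0.125%) and limma on batch 2 alone none (0%). Leaving out mouse 61924 or 61926 gave 0 calls each, and leaving out mouse 61564 or 62221 gave 5 each. The share of all genes called in these fits is not given here. These counts thus do not separate a change in the 10 genes from one in the whole fit. Without the 2 retinas none was called (0% of all genes), with −0.11 ± 0.16 for Aqp4, −0.19 ± 0.11 for Slc1a3 and −0.14 ± 0.16 for Dkk3. In the 2 retinas the amacrine sum was 205 and 267.8 CPM against 821.6 to 1038 CPM in the other 4 of their group, the horizontal sum was 4.86 to 7.86 against 26.43 to 30.49 CPM, the gliosis sum 4233 and 5310 against 2151 to 3283 CPM, the neutrophil sum 190.3 to 207.6 against 30.21 to 90.04 CPM, and the mitochondrial share of counts 2.11% and 2.10% against 2.97% to 3.81%. The part of these in the values of the 10 genes was not tested.

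Within groups the 10 genes did not all vary together. Over the retinas of all groups, with each gene centred on its group mean, 35 of the 45 pairs had a Pearson r above 0 and 18 above 0.5 (median 0.399). The closest pairs were Aqp4 and Abca8a (r = 0.862), Aqp4 and Dkk3 (0.856), Dkk3 and Abca8a (0.826), Rlbp1 and Car2 (0.789), Kcnj10 and Slc1a3 (0.737) and Glul and Rlbp1 (0.736). Sox9 stood against the others, with r = −0.421 to the mean of the remaining 9 genes, and Dkk3 (0.898) and Aqp4 (0.881) followed that mean most closely. Outside the 10 genes, those most like their mean among 15121 genes were Abat (GABA transaminase, r = 0.916), Mlc1 (an endfoot membrane protein, 0.879), Acsl3 (an acyl-CoA synthetase, 0.864), Cntn1 (contactin, a neuronal adhesion protein, 0.861) and Pygb (glycogen phosphorylase, 0.856), and the median over all genes was 0.02. Without the 2 retinas that stand apart (107 retinas) the median over pairs was 0.34, 36 pairs lay above 0 and 15 above 0.5. Aqp4 with Dkk3 was then at 0.785, Aqp4 with Abca8a at 0.765, Sox9 with the other 9 genes at −0.142 and Kcnj10 with the others at 0.084, against 0.346 with all retinas. Abat was then at 0.905. These are descriptions over retinas that share batch and in part a mouse.

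**Figure D5:**
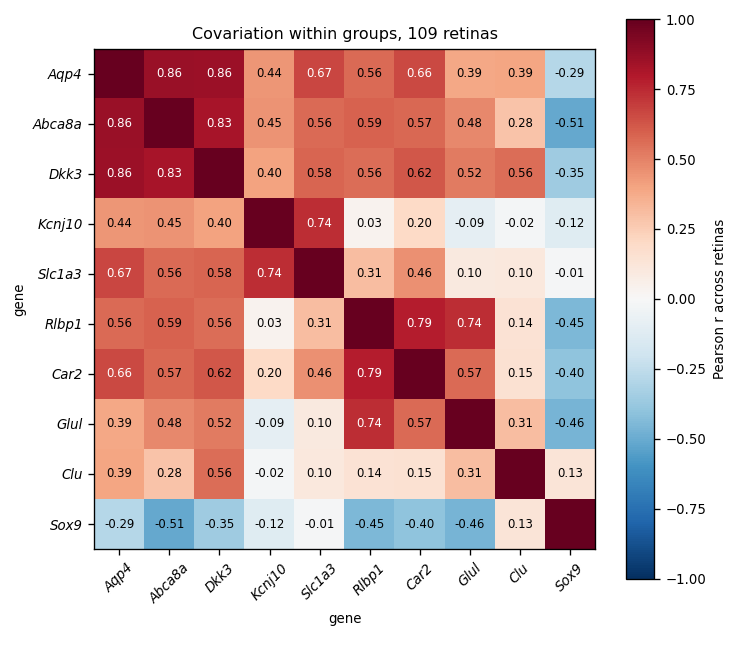
Pearson r between each pair of the 10 genes over all retinas, each gene centred on the mean of its group (colour scale from −1 to 1, value printed in each cell; both axes list the genes). Aqp4, Abca8a and Dkk3 form the closest block, and Sox9 has negative values with most genes.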

How the data were processed

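The 10 genes and the marker lists were chosen with earlier results of these data known. The authors aligned the reads with STAR (2.7.9a) and counted them per gene with featureCounts (Subread 2.0.1), per the labels, and deposited 1 table of raw counts for 37315 Ensembl genes in 109 retinas. The annotation release is not given in the sources used here. Totals were 30014757 to 79064488 counts per retina. Pairs of retinas of a group differed by more than sampling noise (smallest chi-square per gene 4.546), so none was merged.

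The counts were analysed in R 4.3.3 with the model of the study's methods (TMM, voom, sex as a term, mouse by duplicateCorrelation), in other software versions and with a filter added here. The WT comparison of batch 2 was fitted on the retinas of batch 2 (both genotypes), and the comparisons with Sarm1-/- retinas on both batches. Genes were kept by edgeR's filterByExpr (minimum count 10), scaled by TMM (edgeR 4.0.16) and fitted with limma 3.58.1 on voom weights with treatment or group and sex, batch where both were used, and mouse as a random block by duplicateCorrelation in 2 rounds. The comparisons of PBS days had no block. Adjusted p-values (FDR) are Benjamini-Hochberg over all genes tested, with a threshold of 0.05. The eyes of 1 mouse deviated together in the median (r = 0.2111 over genes, from −0.3265 to 0.5962, against −0.0117 for different mice), and the labels give the mouse. The correlation that the fits used for the mouse block was 0.0515 at day 2, 0.284 at day 14 and 0.0794 at day 35. It was −0.0763 in batch 2, 0.000702 in the comparison of batches and 0.00525 in the comparisons with Sarm1-/- retinas. Alternatives were edgeR's quasi-likelihood test, DESeq2 1.42.0, RLE factors, library totals, filters, no sex term, mouse as a fixed factor or no block, batch 2 alone, and each mouse left out. CPM and RPKM were computed from the counts, with RPKM per summed exon length of the gene annotation used here.

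All 10 genes are covered in every comparison, those not called in part by their range, and from each list at most 4 genes with the smallest FDR in IL1A+TNF against PBS at day 2, whatever their direction. The 5 genes with the highest r to the mean of the 10 are named too. No list was given a test of its own. Some genes that this rule names are not reported here.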

Additional observations from a re-analysis of the deposited data

Results flagged for a closer look

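In 10 of 110 combinations of gene and group 1 retina lay far from the others by Dixon's test at the 95% level, which chance alone flags in about 1 in 20. Glul was at 1121 CPM in 1 TNF retina against 1601 to 2023 CPM in the other 7, and Kcnj10 at 180.8 CPM in 1 TNF retina against 108.7 to 141.5 CPM. Car2 was at 177 CPM in 1 IL1A retina against 250.2 to 294 CPM in the other 8, and Sox9 at 55.29 CPM in 1 IL1A retina against 33.98 to 42.78 CPM. At day 14 after TNF, Clu was at 1294 CPM in 1 retina against 507.6 to 722.4 CPM, and Car2 at 407.8 CPM against 336.3 to 353.2 CPM. In batch 2, the WT PBS group had 1 retina with Clu at 844.5 CPM against 1030 to 1043 CPM and 1 with Abca8a at 256.4 CPM against 313.7 to 331.8 CPM. Dkk3 was at 1155 CPM in 1 Sarm1-/- PBS retina against 900.8 to 965.4 CPM, and Sox9 at 40.45 CPM in 1 WT IL1A+TNF retina against 48.8 to 51.76 CPM.

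The effect of IL1A+TNF differed between Sarm1-/- and WT retinas by the genotype by treatment term of limma in 3 genes, with log2 differences of −0.544 for Aqp4, −0.417 for Slc1a3 and −0.557 for Dkk3. None of the 3 was called without the 2 Sarm1-/- retinas that stand apart.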

How the results depend on the processing

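Over the 16 comparisons, 1406 of 1460 log2 fold changes of the 10 genes under other settings kept their direction and side of the threshold, 36 lost the call, 17 gained it and 1 reversed, and with each mouse left out 2291 of 2340 kept both, 26 lost and 23 gained the call and 0 reversed. The 8 calls of IL1A+TNF against PBS at day 2 stood at 8 under every setting run. For IL1A+TNF against IL1A, DESeq2 (11.9% of all genes) and library totals (13.2%) called 2 genes in place of 0, and leaving out a mouse gave 0 to 2. For TNF against PBS at day 2 leaving out a mouse gave 0 to 1. For WT retinas of batch 2, the fixed replicate block (mouse as a fixed factor for the pairing of eyes) called 3 in place of 5 (11.7% of all genes). Leaving out a mouse gave 2 to 6. For Sarm1-/- retinas, IL1A+TNF against PBS gave 5 in place of 8 without the 2 retinas that stand apart (13% of all genes). For Sarm1-/- against WT after IL1A+TNF, in place of 4, edgeR called 1 (5.93% of all genes) and DESeq2 2 (7.91%). Batch 2 alone (0.656%) and the fit without the 2 retinas (0.898%) called 0. Leaving out a mouse gave 1 to 6, and without the 2 retinas the fold change of Abca8a reversed to 0.075. For genotype by treatment, in place of 3, DESeq2 called 1 (2.13% of all genes). EdgeR (0.898%), batch 2 alone (0%), the fixed replicate block (0.125%) and the fit without the 2 retinas (0%) called 0 each. Leaving out a mouse gave 0 to 5. For the fits with a mouse left out, the share of all genes called is not given here. The block lost Clu and Sox9 after IL1A and left 4 calls (10.9% of all genes). Apart from the fits without the 2 retinas, the cause of these changes was not tested.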
